A study of Mus musculus with 12 samples.

Results

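The replication-dependent histone genes are the clustered genes whose symbols begin with Hist1h, Hist2h, Hist3h or Hist4h, and 68 of the 24421 genes in the count table carried such a symbol. They comprised 6 H1, 18 H2A, 19 H2B, 12 H3 and 13 H4 genes. H2A, H2B, H3 and H4 form the core around which DNA is wrapped in the nucleosome, and H1 binds the DNA that links one nucleosome to the next. These genes are switched on as DNA is copied in S phase. Their mRNAs end in a conserved stem-loop, bound by the protein SLBP, where other mRNAs have a poly(A) tail, so that libraries primed on poly(A) largely miss them.

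RNA was sequenced from mouse embryonic stem (mES) cells of the B6 strain (C57BL/6J) in which a degron tag had been knocked in at Brg1, the gene of the ATPase subunit BRG1 of the mSWI/SNF chromatin remodelling complex. The degron lets the small molecule dTAG13 send the tagged protein for degradation. All 12 libraries, the controls included, came from tagged cells grown in 2i and LIF, and the study derived such lines from single-cell colonies. There were 2 control libraries, whose label names no treatment and which the study calls its solvent control, and 2 libraries each after 24 h with 0.3, 1, 3, 10 or 100 nM dTAG13. The libraries were made from total RNA with random priming, so transcripts without a poly(A) tail were counted. Nothing in the labels says whether the 2 libraries of a group came from separate cultures. The study's figure legends describe its expression data as 2 independent experiments. With 2 libraries a group, p-values measure only the spread between these libraries.

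Total counts per library ran from 4663484 to 6375582. The mRNA of the tagged gene, Smarca4, was not removed, since dTAG13 acts on the protein: it stood at 410 and 405 CPM (counts scaled to library size) in the controls and at 455 and 454 CPM at 100 nM. The 45S ribosomal RNA precursor Rn45s took between 10.5% and 19.4% of a library, with 10.5% and 19.0% in the 3 nM libraries and 17.7% and 12.1% in those at 10 nM. In the controls and at 3 and 100 nM the histone sum was higher in the library with less Rn45s. At 0.3, 1 and 10 nM it was higher in the library with more. All 7 markers of mES cells were expressed, from 63.1 RPKM (CPM per kb of exon) for Sox2 to 682 RPKM for Dppa5a. At 100 nM 42.9% of these 7 fell and 28.6% rose at adjusted p under 0.05 by edgeR, against 13.3% and 10.1% of all genes. The 7 fibroblast and 6 primitive endoderm markers were all below 1 RPKM. Of 5 neural markers, 3 passed the filter on low values, of which 66.7% rose and 0% fell at 100 nM at adjusted p under 0.05 (edgeR), against 10.1% and 13.3% of all genes. Summed over all listed neural markers in the count table, tested or not, the level rose from between 76.2 and 87.2 CPM in the controls to between 152 and 158 CPM at 100 nM. Of 7 trophectoderm markers, 6 passed the filter. The sum over all those in the count table was 70.9 to 77.6 CPM in the controls and 80.1 to 84.7 CPM at 100 nM. It held opposite changes: Cdx2, Tfap2c and Eomes rose by 3.10, 0.69 and 0.33 on the log2 scale, and Krt8 fell by 2.02 (adjusted p of 0.0465 or less, edgeR). Of the 6 trophectoderm markers tested, 50% rose and 16.7% fell, against 10.1% and 13.3% of all genes. The part of other cell types in the histone values was not tested.

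The stem-loop is shown first because it stands in place of the poly(A) tail, without which poly(A)-primed libraries largely miss these genes. The letters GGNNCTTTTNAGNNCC, on the sense strand, were found in 35 of the 52 members that could be matched to a single-exon transcript, and in 1 of 58484 protein-coding transcripts of genes that are not members, in the last 220 bases of each. Of the 17 members without a match, 13 had an annotated transcript that ended before the counted gene did, against 1 of the 35 with a match, so that the end of those 13 was not searched. The 1 transcript with the letters among genes that are not members belonged to H2bfm, another histone gene. The 35 loops held 6 different stems, of which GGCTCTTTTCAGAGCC was the most frequent with 18 members, in every class but H4. In the lines that follow the capitals mark the stem and loop, and the transcripts are on GRCm38, the assembly that mm10 names. The members are the most abundant H1 and H4 genes, the 2 genes past the 1.5-fold minimum, and the testis-specific H1 gene.
Hist1h1c, chr13:23739507-23739532, plus strand: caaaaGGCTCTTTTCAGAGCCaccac
Hist1h4d, chr13:23581945-23581970, plus strand: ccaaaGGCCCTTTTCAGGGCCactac
Hist1h2bg, chr13:23571838-23571863, plus strand: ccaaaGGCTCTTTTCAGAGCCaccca
Hist1h3a, chr13:23761885-23761910, minus strand: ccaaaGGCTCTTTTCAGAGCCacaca
Hist1h1t, chr13:23696520-23696545, plus strand: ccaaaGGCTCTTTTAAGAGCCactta
Hist1h1c, Hist1h2bg and Hist1h3a carried the same stem, and Hist1h4d carried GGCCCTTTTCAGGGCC, the form of 6 members. Hist1h1t had the stem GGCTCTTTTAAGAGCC, also found in 6 members.

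Promoters are shown for an H2B gene that fell, for an H2B gene whose neighbour on the opposite strand did not pass the test, and for the most abundant H1 gene. RefSeq promoters (GRCm38.p6) were matched for 55 of the 68 members, over 250 bases before to 50 bases after the start. The letters TATAAA, on either strand, stood in 33 of them (60.0%), against 13.6% of all 32851 promoters of that table. CCAAT, the letters recognised by the factor NF-Y, stood in 47 (85.5%) against 37.4%, and its place by class was uneven: all 44 matched H1, H2A, H2B and H3 promoters held it, but only 3 of 11 H4 promoters. The octamer ATTTGCAT, recognised by OCT1, stood in 7 of 16 H2A and 6 of 14 H2B promoters. It stood in none of the H1, H3 and H4 promoters, and in 1.74% of all promoters. Not all 55 matched promoters are separate sequences. Promoters of genes that start close together on opposite strands can overlap, so the same motif can count for both. Hist1h2ao and Hist1h2ap were matched to the same promoter. In the lines that follow, which give the 250 bases before the start, the capitals mark the 3 motifs on either strand, and none of them overlap.
Hist1h2bg, chr13:23571150-23571399, plus strand: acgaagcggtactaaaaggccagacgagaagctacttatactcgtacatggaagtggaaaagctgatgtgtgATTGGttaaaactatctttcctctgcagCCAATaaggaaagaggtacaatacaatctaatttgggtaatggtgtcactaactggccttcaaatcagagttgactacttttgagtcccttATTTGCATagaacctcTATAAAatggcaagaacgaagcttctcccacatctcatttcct
Hist1h2bj, chr13:22042948-22043197, plus strand: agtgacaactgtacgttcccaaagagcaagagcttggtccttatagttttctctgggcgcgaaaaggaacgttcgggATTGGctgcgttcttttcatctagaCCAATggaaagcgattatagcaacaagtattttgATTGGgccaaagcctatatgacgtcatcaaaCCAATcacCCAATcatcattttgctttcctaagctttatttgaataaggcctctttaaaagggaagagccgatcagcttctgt
Hist1h1c, chr13:23738557-23738806, plus strand: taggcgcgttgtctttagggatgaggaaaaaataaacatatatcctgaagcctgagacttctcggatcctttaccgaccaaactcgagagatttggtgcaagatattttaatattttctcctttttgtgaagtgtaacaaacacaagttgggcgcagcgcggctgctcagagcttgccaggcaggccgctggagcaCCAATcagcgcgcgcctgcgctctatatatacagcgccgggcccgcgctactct
The Hist1h2bg promoter held 2 CCAAT boxes, 1 octamer and 1 TATAAA, that of Hist1h2bj held 5 CCAAT boxes with neither of the other motifs, and that of Hist1h1c held 1 CCAAT box. A match describes the letters only. Medians of the log2 fold change at 100 nM were taken over the 52 members with both a promoter and a test. The median was -0.32 for the 45 with CCAAT and -0.22 for the 7 without it. Those 7 were all H4 genes, and the median of all 12 tested H4 genes was also -0.22. The median was -0.32 for the 32 with TATAAA and -0.25 for the 20 without it. For the octamer the medians were -0.32 for the 13 with it and -0.27 for the 39 without it. These differences were not tested.

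Of the 68 members, 58 passed the filter of 1 RPKM and were tested, and 10 did not. Of those 10, 9 overlap another symbol at the same place, so that their read pairs were ambiguous and were not counted: Hist1h2ao with Hist1h2ap, Hist1h2bq with Hist1h2br, Hist2h2aa1 with Hist2h2aa2, Hist2h3c1 with Hist2h3c2, and Hist1h4m with Hist1h4n. The overlapping Hist1h4n passed the filter. The remaining 1, Hist2h2be, had at most 16 counts in a library. All 6 H1, 14 of 18 H2A, 16 of 19 H2B, 10 of 12 H3 and 12 of 13 H4 genes were tested.

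Members differed widely in level. Over the 12 libraries the mean RPKM of the tested members ran from 4.86 for Hist3h2bb-ps, a pseudogene, to 1310 for Hist2h2bb, with a median of 136. Within each class a few genes gave most of the counts. Hist1h4d held 33.3% of the H4 counts, Hist2h2bb 31.6% of the H2B counts, Hist1h1c 28.5% of the H1 counts and Hist1h3e 26.1% of the H3 counts, while the leading H2A gene, Hist2h2ac, held 18.4%. Of 53 pairs of neighbours in the order within a class, 11 did not overlap in their ranges over libraries. Hist2h2bb, at 1189 RPKM or more in every library, did not overlap the next H2B gene, Hist1h2bn, at 614 RPKM or less. Likewise Hist1h4d, at 1032 RPKM or more, did not overlap Hist4h4, at 531 RPKM or less, and Hist1h3e, at 402 RPKM or more, did not overlap Hist1h3g, at 257 RPKM or less. The testis-specific genes were low, at 10.9 RPKM for Hist1h1t, 11.3 for Hist1h2aa and 9.43 for Hist1h2ba.

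**Figure D1:**
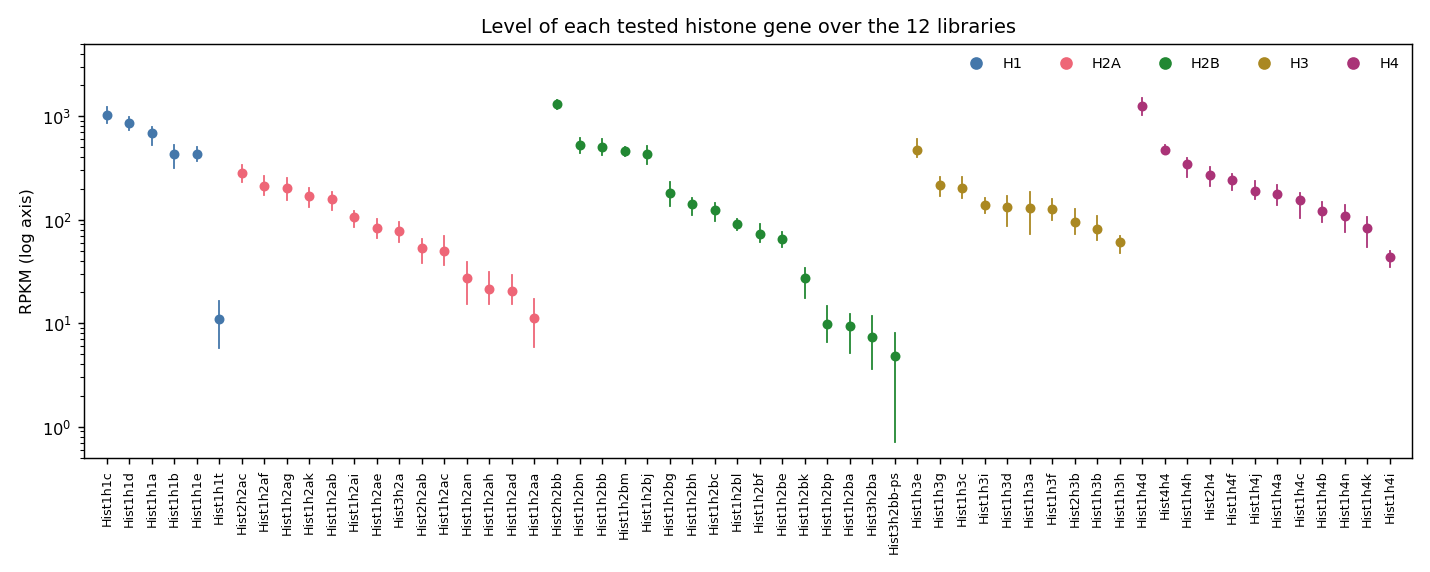
Mean RPKM of each of the 58 tested histone genes over the 12 libraries (points, log axis), with the lowest and highest library (lines), ordered by class and level. Hist2h2bb, at 1310 RPKM, and Hist1h4d, at 1268 RPKM, stand apart from the rest of their classes, and the testis-specific genes lie between 9.43 and 11.3 RPKM.

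Coding regions of these genes are nearly alike, and read pairs that fit several genes were left out of the counts, so levels of different members are uncertain. Of the windows of 75 bases in a member, the length of a read, a median of 45.0% over 52 members also occurred in another Hist transcript. The share was lowest in H1, with a median of 7.42% and none at all in Hist1h1a, Hist1h1b and Hist1h1t, and highest in H2A, with a median of 57.1%. It was 66.2% for Hist1h2bg, 41.4% for Hist1h3a and 13.3% for Hist1h4d. The change at 100 nM was of similar size in the 29 tested members with under 50% of shared windows, with a median log2 fold change of -0.32, and in the 21 with at least 50%, with a median of -0.30.

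Summed over all 68 members, histone RNA was lower at higher doses of dTAG13. The sum was 8252 and 8791 CPM in the controls, 8288 and 8449 CPM at 0.3 nM and 7912 and 7930 CPM at 1 nM. It was 7665 and 7051 CPM at 3 nM, 7091 and 6535 CPM at 10 nM, and finally 7093 and 6816 CPM at 100 nM. The libraries of 0.3 nM lay within the range of the controls, while both libraries of each dose from 1 nM upwards lay below both controls. In percent of the control mean the sums were 98.2%, 93.0%, 86.4%, 80.0% and 81.6% from 0.3 to 100 nM, and those of 10 and 100 nM overlapped each other. No test is given for sums. CPM are relative to the other genes of a library, and in RNA of many cells, fewer cells in S phase and less histone RNA per cell cannot be told apart.

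The decline was seen in every class. H1 stood at 2876 and 3080 CPM in the controls and at 2488 and 2295 CPM at 100 nM (80.3% of control). H2A went from 751 and 816 CPM to 659 and 633 CPM (82.5%), and H2B from 2242 and 2288 CPM to 1884 and 1807 CPM (81.5%). The H3 sum was 865 and 1052 CPM in the controls, the widest spread of any class there, and 761 and 786 CPM at 100 nM (80.7%). The H4 sum went from 1518 and 1554 CPM to 1301 and 1295 CPM (84.5%). In all 5 classes both 100 nM libraries lay below both controls. The percentages of the 5 classes lay closer together than the 2 control libraries of H1, H2A or H3. They lay further apart than the 2 control libraries of H2B or H4. At 10 nM the class sums stood between 76.7% for H3 and 86.0% for H2A. By cluster, the 31 Hist1 members at the higher coordinates of chromosome 13 stood at 80.5% of control at 100 nM, the 23 at its lower coordinates at 83.1% and the 10 Hist2 genes at 83.9%. The 3 Hist3 genes, together only 53.3 CPM in the controls, stood at 67.9%, and Hist4h4, alone in its cluster, at 89.7%.

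**Figure D2:**
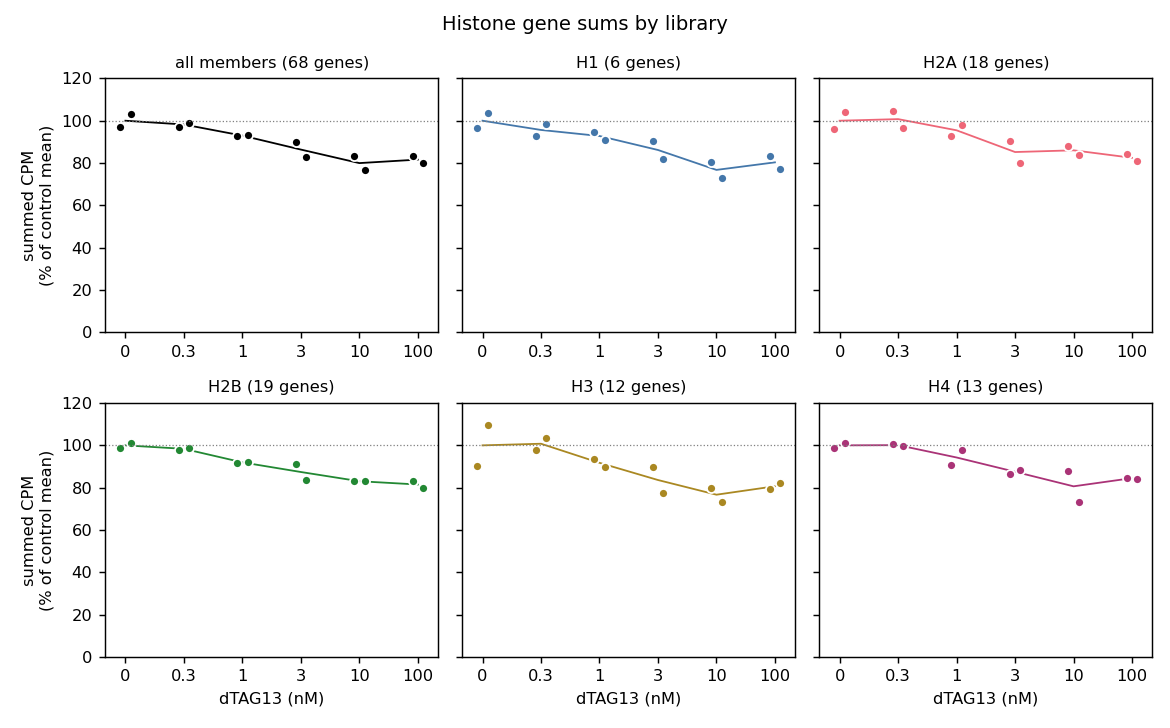
Summed CPM of all histone genes and of each class in each library (2 points a dose) as percent of the mean of the 2 control libraries, with lines through the means, against dTAG13 in nM (doses evenly spaced). In each panel the 10 and 100 nM libraries lie below both controls, and the mean of all members reaches 80.0% at 10 nM and 81.6% at 100 nM.

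Gene by gene, most members were lower at 10 and 100 nM and few by much. By edgeR's quasi-likelihood test, with p-values adjusted after Benjamini and Hochberg over 11378 genes, 2 of 58 members at 100 nM fell with adjusted p under 0.05 and more than 1.5-fold, where 6.83% of all genes tested did. No member rose by that rule, where 4.37% of all genes did. With no minimum of fold, 23 of 58 (39.7%) fell, against 13.3% of all genes, and none rose, against 10.1%. At an unadjusted p under 0.05, 36 were lower (18.6% of all genes) and 0 higher (15.9%). Histone genes are abundant and abundant genes are tested with less error. Among genes with at least 100 mean counts, 23 of 48 members (47.9%) fell at adjusted p under 0.05, against 15.7% of 7045 genes. The median log2 fold change of the 58 members was -0.31, where the median of all genes was 0, and the fitted change was below 0 in 54 members against 50% of all genes. Both libraries lay below both controls in 48 members (82.8%), against 31.2% of all genes.

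At 10 nM the picture was close to that at 100 nM. By the same edgeR test, 2 members fell more than 1.5-fold at adjusted p under 0.05 (4.92% of all genes) and 27 fell with no minimum of fold (46.6%, against 10.1% of all genes), while 0 rose (3.01% and 7.87% of all genes) and at an unadjusted p under 0.05 37 were lower (15.2% of all genes) and 0 higher (13.7%). Of the 27 genes lower at 10 nM and the 23 lower at 100 nM, 19 were shared, 70.4% of the first list and 82.6% of the second. The 2 comparisons share the control libraries. The median log2 fold change at 10 nM was -0.30.

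At lower doses fewer members passed. At 3 nM 7 members fell with no minimum of fold (12.1%, against 5.25% of all genes), which were Hist1h1a, Hist1h1b, Hist1h2bg, Hist1h3b, Hist1h4d, Hist2h2ac and Hist2h2bb, and all 7 also fell at 10 and 100 nM. None passed 1.5-fold (2.38% of all genes), and 0 rose (1.52% and 4.15% of all genes with and without the minimum). At an unadjusted p under 0.05, 29 were lower (11.6% of all genes) and 0 higher (10.1%). At 1 nM no member passed in either direction by edgeR's test (1.52% of all genes were lower and 0.773% higher at adjusted p under 0.05, 0.729% and 0.185% also past 1.5-fold), although at an unadjusted p under 0.05 8 were lower (7.47% of all genes) and 0 higher (6.03%), and the median was -0.10. By DESeq2's Wald test the counts at 1 nM were also 0, and by edgeR's likelihood ratio test 1 was lower. At 0.3 nM no member passed by any of the 3 tests, with 0 lower (4.38% of all genes) and 0 higher (3.17%) at an unadjusted p under 0.05 by the quasi-likelihood test, and the median was -0.01, where 0.0703% of all genes were lower at adjusted p under 0.05 and 0 higher (0.0176% and 0 also past 1.5-fold).

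Libraries of 0.3 and 3 nM carry library numbers of another series than the controls and the other doses, so their comparisons with control cannot be told apart from that series. Compared within the series, 3 nM against 0.3 nM, 5 members fell at adjusted p under 0.05 by the same edgeR test (2.88% of all genes), which were Hist1h1a, Hist1h2bg, Hist1h3b, Hist1h4d and Hist2h2bb. In the same comparison 0 rose (2.43% of all genes) and 0 passed 1.5-fold in either direction (1.2% lower and 0.747% higher). At an unadjusted p under 0.05, 26 were lower (9.89% of all genes) and 0 higher (8.8%). The 5 calls were not stable: the likelihood ratio and Wald tests each gave 2, and with no normalization factors, or without 0.3 nM replicate 1, none was left. Neither of those tests found a member higher in any of the 6 comparisons. The summed level at 3 nM was 87.9% of that at 0.3 nM, and the median log2 fold change was -0.23.

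**Figure D3:**
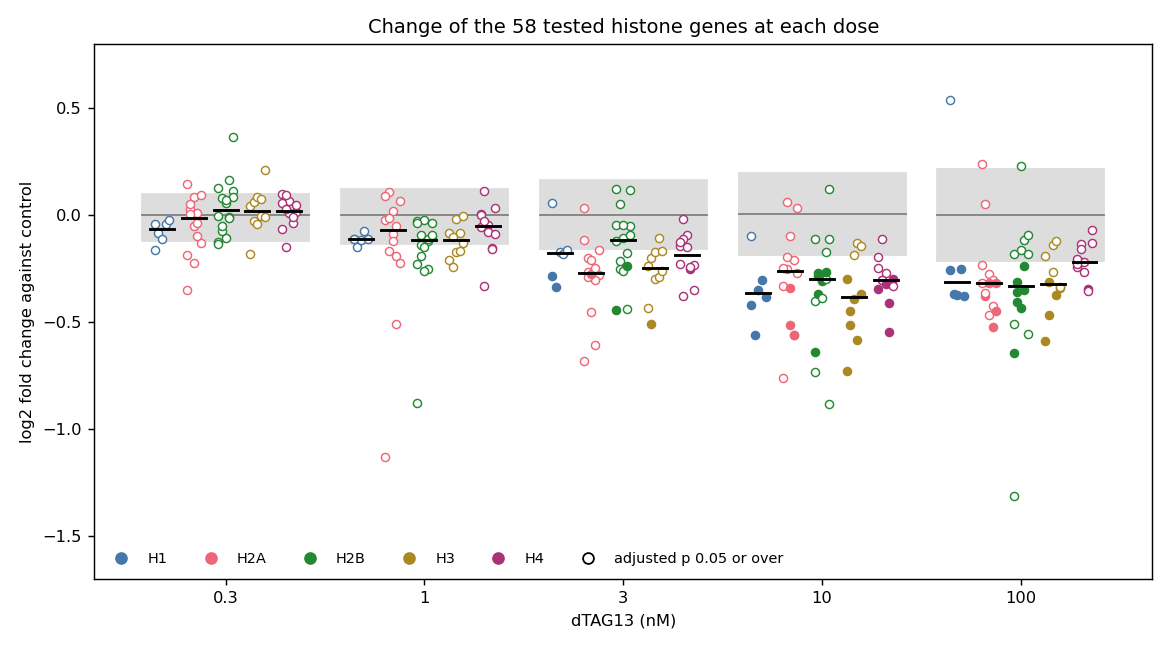
Log2 fold change against control of the 58 tested histone genes at each dose, by class. Filled points passed an adjusted p under 0.05 by edgeR's quasi-likelihood test, black bars are class medians, and grey boxes with a line are the quartiles and median of all 11378 genes. The class medians lie near 0 at 0.3 nM and between -0.22 and -0.33 at 100 nM, at or below the lower quartile of all genes, and no filled point lies above 0.

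Among the linker histones, Hist1h1c (H1.2) was the most abundant and stood at 1113 and 1241 RPKM in the controls, 1053 and 1128 at 0.3 nM, 1118 and 1057 at 1 nM, 1159 and 930 at 3 nM, 943 and 905 at 10 nM, and at 100 nM 959 and 856. The 10 and 100 nM libraries all lay below the controls, while at 3 nM one library lay within the control range and the other below it. Its log2 fold change was -0.35 ± 0.08 (SE) at 10 nM and -0.38 ± 0.08 at 100 nM, with adjusted p = 0.00171 and 0.00056 in the edgeR test. Hist1h1d (H1.3) stood at 922 and 979 RPKM in the controls and at 827 and 768 at 100 nM, and its log2 fold change there was -0.25 ± 0.06 (adjusted p = 0.00348, edgeR). The other somatic genes Hist1h1a, Hist1h1b and Hist1h1e also fell, by 0.26, 0.37 and 0.38 on the log2 scale at 100 nM. Hist1h1a and Hist1h1b, which share no read-length window with another Hist transcript, had larger fitted falls at 10 nM. The log2 fold changes there were -0.42 ± 0.06 and -0.56 ± 0.08. The difference between 10 and 100 nM was not tested, and the libraries of these doses overlapped for Hist1h1b. The 5 somatic H1 genes thus all passed the test at both doses, where 10.1% of all genes were lower at 10 nM and 13.3% at 100 nM. Among genes with at least 100 mean counts these shares were 11.9% and 15.7%. With 1 library left out some of the H1 calls ended. At 10 nM that of Hist1h1c did (adjusted p = 0.0557 without control replicate 2). At 100 nM those of Hist1h1a, Hist1h1b and Hist1h1d ended without 100 nM replicate 2 (adjusted p = 0.0535, 0.0611 and 0.0894, edgeR), and that of Hist1h1d also without control replicate 2 (0.0687).

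The testis-specific Hist1h1t had the largest fitted rise of the 58 members and did not pass. It had 10.7 and 10.2 RPKM in the controls, between 5.73 and 13.3 at the doses up to 10 nM, and 14.2 and 16.2 at 100 nM. Both 100 nM libraries lay above all others, but the log2 fold change of 0.54 ± 0.30 did not pass the edgeR test (adjusted p = 0.211), with 24 to 73 counts per library. The other testis-specific genes had log2 fold changes of -0.32 ± 0.28 (Hist1h2aa) and -0.51 ± 0.37 (Hist1h2ba) at 100 nM, and neither passed.

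Of the H2A genes, Hist2h2ac stood at 299 and 340 RPKM in the controls, 270 and 234 at 10 nM and 248 and 264 at 100 nM, and its log2 fold change at 100 nM was -0.32 ± 0.09 (adjusted p = 0.00744, edgeR). Without control replicate 2 it was -0.22 with adjusted p = 0.156, and the call also ended without 100 nM replicate 1 (adjusted p = 0.1). Hist1h2af, at 207 and 238 RPKM in the controls and 187 and 191 at 100 nM, did not pass (log2 fold change -0.23 ± 0.09, adjusted p = 0.0707, edgeR). Hist3h2a, from the small cluster on chromosome 11 (58954685 to 58955192, plus strand), had one of the 3 largest falls among members with at least 20 mean counts. It stood at 87.5 and 95.5 RPKM in the controls, 61.5 and 62.6 at 10 nM, and at 100 nM 64.5 and 63.1. The groups were well apart, and the log2 fold change at 100 nM was -0.52 ± 0.11 (adjusted p = 0.000948, edgeR). Hist1h2an had one of the largest fitted rises at 100 nM, 0.24 ± 0.28, but its controls stood at 38.0 and 17.8 RPKM and its 100 nM libraries at 26.3 and 39.1, so that the groups overlapped.

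Of the H2B genes, Hist1h2bg showed the clearest decline of any member. It lies on chromosome 13 from 23571400 to 23571863 and stood at 233 and 224 RPKM in the controls, 211 and 208 at 0.3 nM, 179 and 211 at 1 nM, 160 and 176 at 3 nM, 157 and 136 at 10 nM, and at 100 nM 141 and 151. Every treated library lay below both controls. Its log2 fold change was -0.44 ± 0.09 at 3 nM, -0.64 ± 0.09 at 10 nM and -0.65 ± 0.09 at 100 nM (63.9% of control), with adjusted p = 0.00249, 1.52e-05 and 7.55e-06 by edgeR's test. Hist2h2bb, the most abundant member, stood at 1448 and 1439 RPKM in the controls, 1439 and 1423 at 0.3 nM, 1300 and 1375 at 1 nM, 1215 and 1234 at 3 nM, 1212 and 1189 at 10 nM, and at 100 nM 1224 and 1226. Its pairs of libraries were close at every dose but 1 nM, and its level at 3 nM was already near that at 100 nM. The log2 fold change at 100 nM, -0.24 ± 0.05, was smaller than that of Hist1h2bg but also passed (adjusted p = 0.000857, edgeR). Hist1h2bn, at 603 and 614 RPKM in the controls and 512 and 438 at 100 nM, fell by 0.36 on the log2 scale, a call that ended without 100 nM replicate 2 (adjusted p = 0.0681). Hist1h2bp, among the largest fitted rises at 0.23 ± 0.29, stood at 11.4 and 8.82 RPKM in the controls and at 8.97 and 14.7 at 100 nM and did not pass.

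Of the H3 genes, Hist1h3a was the second member to pass 1.5-fold. It lies on chromosome 13 from 23761885 to 23762386 and stood at 138 and 187 RPKM in the controls, 139 and 147 at 0.3 nM, 150 and 131 at 1 nM, 127 and 114 at 3 nM, 123 and 72.6 at 10 nM, and at 100 nM 108 and 107. Its controls and its 10 nM libraries were far apart, and all libraries from 3 nM upwards lay below both controls. Its log2 fold change was -0.73 ± 0.15 at 10 nM and -0.59 ± 0.15 at 100 nM, with adjusted p = 0.00111 and 0.00482 by edgeR's test. At 100 nM this was 1.51-fold, just past the minimum, and without control replicate 2 it was -0.35 with adjusted p = 0.189, while without 100 nM replicate 2 the adjusted p was 0.0513. The call at 10 nM ended too, with -0.50 and adjusted p = 0.0692 without control replicate 2, and with -0.41 and adjusted p = 0.053 without 10 nM replicate 2. Hist1h3e, the most abundant, stood at 465 and 606 RPKM in the controls and 404 and 441 at 100 nM, and fell by 0.34 on the log2 scale (adjusted p = 0.00769, edgeR). That call also ended without control replicate 2, at -0.14 with adjusted p = 0.374, and without 100 nM replicate 1 (adjusted p = 0.125). Hist1h3g, at 222 and 257 RPKM in the controls and 190 and 196 at 100 nM, fell by 0.31 (adjusted p = 0.0171, edgeR), and without control replicate 2, 100 nM replicate 1 or 100 nM replicate 2 its adjusted p was 0.259, 0.121 or 0.07.

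Of the H4 genes, Hist1h4d stood at 1379 and 1517 RPKM in the controls, 1414 and 1414 at 0.3 nM, 1286 and 1315 at 1 nM, 1253 and 1178 at 3 nM, 1149 and 1032 at 10 nM, and at 100 nM 1157 and 1123. Every library from 1 nM upwards lay below both controls. The log2 fold changes were -0.25 ± 0.06, -0.41 ± 0.06 and -0.34 ± 0.06 at 3, 10 and 100 nM, with adjusted p = 0.0074, 1.84e-05 and 0.000105 by edgeR's test. The call at 3 nM ended without control replicate 2 (adjusted p = 0.156) or 3 nM replicate 2 (adjusted p = 0.0726). Of 12 tested H4 genes only Hist1h4d passed at 100 nM, where 13.3% of all genes were lower. At 10 nM 5 of the 12 passed, where 10.1% of all genes were lower. Hist4h4, which stands apart from the clusters on chromosome 6, had 481 and 496 RPKM in the controls and 447 and 429 at 100 nM. Its change of -0.16 ± 0.08 did not pass (adjusted p = 0.149, edgeR), and it had no shared read-length window.

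**Figure D4:**
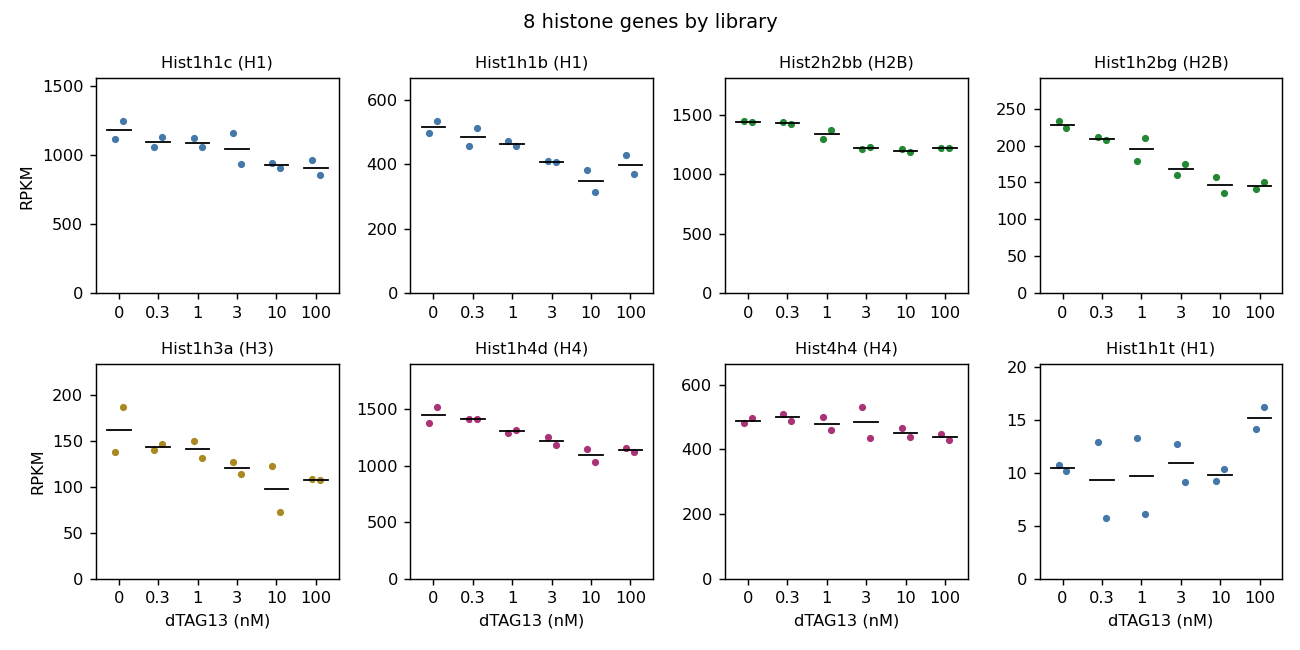
RPKM in each library (points, 2 a dose) and the mean of each dose (bars) for 8 histone genes, against dTAG13 in nM (doses evenly spaced, each panel starting at 0). Hist1h2bg is lower than both controls in every library, Hist2h2bb levels off from 3 nM, Hist4h4 changes little, and Hist1h1t is highest at 100 nM.

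Many H2A and H2B genes lie head to head and share the DNA between their starts. There were 11 such pairs with 172 to 305 bases between the starts, and both genes were tested in 10. Both fitted changes were below 0 at 100 nM in 8 of these 10. In 2 both genes passed an adjusted p under 0.05 by edgeR's test: Hist1h2ae with Hist1h2bg, and Hist1h2ak with Hist1h2bn. Of all 58 tested members, 54 (93.1%) were below 0 there and 23 (39.7%) passed. Over all genes the shares were 50% and 13.3%. Whether paired genes differ from other members was not tested. Hist1h2ae, with 179 bases between its start and that of Hist1h2bg, starts within the window printed above and stood at 91.7 and 101 RPKM in the controls and 70.0 and 71.2 at 100 nM, where its log2 fold change was -0.45 ± 0.13. With 1 library left out its adjusted p reached 0.118 and that of Hist1h2ak 0.635, so that neither pair held both calls, while Hist1h2bg kept its own. In the pair Hist1h2ag and Hist1h2bj, with 280 bases between, only the H2B gene passed. Hist1h2bj went from 472 and 512 RPKM to 384 and 344 (log2 fold change -0.43 ± 0.09, adjusted p = 0.000623, edgeR), while Hist1h2ag had 201 and 200 RPKM in the controls and 251 and 165 at 100 nM, on both sides of them (0.05 ± 0.12, adjusted p = 0.811). The difference between the genes of a pair was not tested. Read-length windows shared with other Hist transcripts made up 81.2% of Hist1h2ag.

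**Figure D5:**
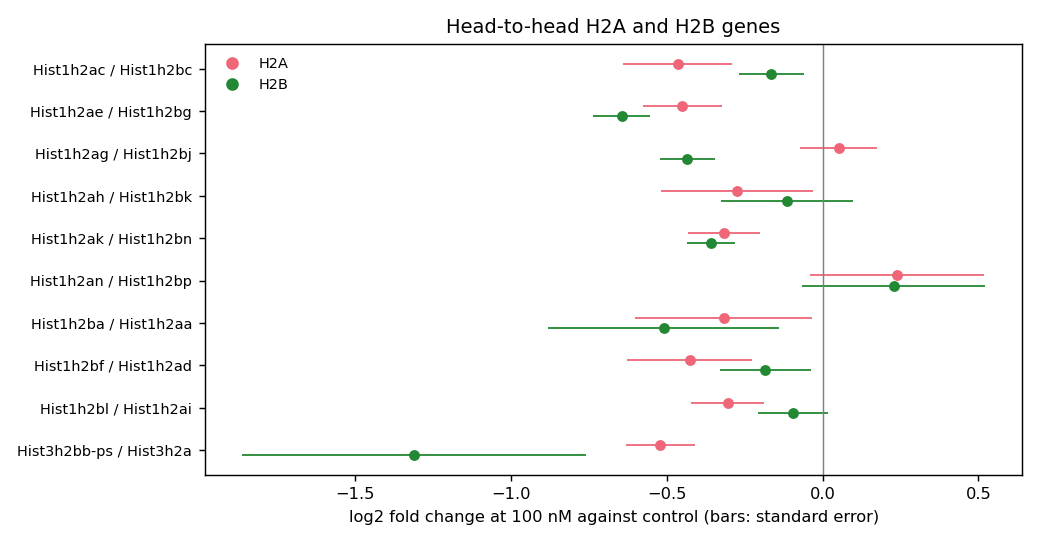
Log2 fold change at 100 nM against control for the H2A and the H2B gene of the 10 head-to-head pairs with both genes tested (points, with bars of 1 standard error). Both lie below 0 in 8 pairs, where 54 of all 58 tested members lie below 0. The Hist1h2ag and Hist1h2bj pair splits across 0. Hist3h2bb-ps, with the widest bar, had 2 to 22 counts per library.

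Genes around the histone genes were taken as lists. Of 12 replication-independent variants, which are made outside S phase or throughout the cycle, 11 were tested and at 100 nM 5 fell (45.5%, against 13.3% of all genes) and 0 rose (10.1% of all genes) at adjusted p under 0.05 by edgeR's test. They were H2afx, H2afv, H3f3b, H1f0 and Cenpa, the centromeric H3. H2afx, the variant phosphorylated at DNA breaks, whose mRNA can end in the stem-loop or in poly(A), was the only one past 1.5-fold: it went from 303 ± 26.1 RPKM (SD, n = 2) to 199 ± 5.04, a log2 fold change of -0.61 ± 0.08 (adjusted p = 1.35e-06, edgeR). H2afz, the most abundant of them, stood at 659 ± 14.6 RPKM in the controls and 670 ± 14.8 at 100 nM. The summed level of the list was 88.2% of control at 100 nM, where that of the replication-dependent genes was 81.6%.

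Of 12 genes for processing and decay of histone mRNA, 11 were tested and none passed at any dose by edgeR's quasi-likelihood test (at 100 nM 10.1% of all genes rose and 13.3% fell). At an unadjusted p under 0.05, 2 of the 11 passed at 10 nM and 1 at 100 nM, and the likelihood ratio and Wald tests gave 0 at every dose. Slbp, which binds the stem-loop, stood at 51.8 ± 3.40 RPKM in the controls and 50.02 ± 0.755 at 100 nM (log2 fold change -0.05 ± 0.08). Casp8ap2 (FLASH), which acts at the 3′ end of histone mRNA, changed by 0.17 ± 0.07 and did not pass (adjusted p = 0.11, edgeR). Of 14 genes for histone gene transcription and entry into S phase, 2 rose and 1 fell at 100 nM. Ccne2, a cyclin of the G1 to S transition, rose from 8.76 ± 1.68 to 12.4 ± 0.726 RPKM (adjusted p = 0.00993, edgeR), Pou2f1, the gene of OCT1, rose by 0.26 on the log2 scale, and Cdk2 fell by 0.26. Of 18 histone chaperone genes, 17 were tested, and Atrx and Nap1l1 fell, by 0.27 and 0.21 on the log2 scale.

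The S-phase list of 26 genes had a median log2 fold change of 0.02 at 100 nM, and its summed level was 100.1% of control, with 5655 and 5683 CPM against 5630 and 5693 CPM. Of its members 2 fell (7.69%, against 13.3% of all genes) and 3 rose (11.5%, against 10.1%) at adjusted p under 0.05 by edgeR's test, shares near those of all genes. Rrm2, a subunit of ribonucleotide reductase, fell from 155 ± 4.09 to 112 ± 6.89 RPKM (log2 fold change -0.47 ± 0.06) and Tk1, thymidine kinase, fell by 0.39. Among those that rose were Rpa2, a subunit of the single-strand DNA binding protein RPA, by 0.32, and Cdc45, part of the replicative helicase, by 0.33. The sum of the 12 genes of G2 and M stood at 96.1% of control, with Ccnb2 and Cenpe lower and Cdc20 higher. The part of the cell cycle in the histone values was not tested. Of the abundant RNAs without a poly(A) tail, 8 of 13 listed were in the table: at 100 nM Terc and Scarna2 rose and Rpph1 fell, and their summed level was 92.6% of control.

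The counts of members passing the test depended on single libraries. Shares of all genes were not taken with a library left out or under other settings. Whether the counts changed more for histone genes than for all genes was therefore not tested. Without control replicate 2, 12 members fell at 10 nM and 13 at 100 nM with no minimum of fold, and without 10 nM replicate 2 or 100 nM replicate 2 the counts were 15 and 13. Of the 27 calls at 10 nM 10 were kept whichever library was left out, and of the 23 at 100 nM 9 were, with 5 genes kept at both doses: Hist1h1e, Hist1h2bg, Hist1h4d, Hist2h2bb and Hist3h2a. With no normalization factors the 100 nM calls of Hist1h1d, Hist2h2bb and Hist1h3g ended (adjusted p = 0.11, 0.087 and 0.115), as did that of Hist1h3e (0.0714), and DESeq2's Wald test did not call Hist1h3a (adjusted p = 0.114) or Hist1h3e (0.0804) there. The sum over all members was below control at 10 and 100 nM in each of these settings, and Hist1h2bg passed at 3, 10 and 100 nM in all of them.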

How the data were processed

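RNA-seq of 12 libraries, 2 for each of control and 0.3, 1, 3, 10 and 100 nM dTAG13, was analysed from the deposited table of read-pair counts. Per the file header and the labels, the authors trimmed reads with Trim Galore, aligned them to mm10 with HISAT2 and counted pairs with both ends aligned on exons by gene symbol with featureCounts 2.0.1, without strand. Multi-mapped pairs and pairs that overlap more than 1 gene were not counted, which lowers the counts of near-identical or overlapping histone genes. The deposited counts carry no normalization. Because strand was not used, antisense reads cannot be told from sense reads.

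Analysis used R 4.3.3 with edgeR 4.0.16, and DESeq2 1.42.0 as an alternative. The filter kept 11378 genes whose RPKM averaged 1 or more across libraries, TMM factors were computed on them, all 6 groups were fitted together, and the quasi-likelihood test of edgeR compared each dose with control, and 3 nM with 0.3 nM, with p-values adjusted after Benjamini and Hochberg over all genes tested. The study's methods name the likelihood ratio test, run as an alternative, and a 1.5-fold minimum. Total counts of 4663484 to 6375582 limit the precision. In counts simulated for 11378 genes and the 100 nM comparison, 100 genes were lowered 1.25-fold and 100 were lowered 2-fold. All of these had at least 100 mean counts. By the same edgeR test, 28 and 100 of them passed an adjusted p under 0.05, as did 14 of 11178 unchanged genes. In the data far more genes passed at 100 nM, 1511 lower and 1151 higher. The adjustment was therefore stricter in the simulation, and its shares do not give the share found in the data. CPM and RPKM use the same scaled library sizes. The SE is that of the log2 fold change.

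The members and gene lists were chosen with earlier results of these data known. Named were the 2 most abundant tested genes of each class, those passing 1.5-fold, the 3 largest rises and falls at 100 nM with at least 20 mean counts, and the testis-specific genes. Others named (such as Hist1h1a, Hist1h2ae, Hist1h2ag and Hist1h2bj) were chosen after their values were seen. Gene lists were the variants, mRNA processing, transcription, chaperones, S phase, G2 and M, abundant RNAs without poly(A) and cell type markers. Values of 1 gene of the S-phase list are not reported here. Transcripts were from GENCODE vM21 and promoters from RefSeq. Stem-loops were searched from 120 bases before to 100 bases after the counted end. Alternatives covered the test, normalization, filter, fold minimum, samples fitted, replicate block and each library left out.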

Additional observations from a re-analysis of the deposited data

How the results depend on the processing

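Of 1664 values recomputed under alternatives, 1516 were taken as the same. For single genes this meant the same direction and side of the threshold, and for counts a value within 1.5 times. For sums it meant a move of less than 1 SD between libraries of a group, whatever the sign. Sums near 0 could thus change sign and still be taken as the same, as that of H2A at 0.3 nM (log2 ratio 0.011, down to -0.046). The other settings below changed the number of histone genes lower at adjusted p under 0.05. The cause was not tested, and the shares of all genes in these settings were not taken. With the 1.5-fold minimum the counts at 1, 3, 10 and 100 nM and for 3 against 0.3 nM were 0, 0, 2, 2 and 0. With no fold minimum they were 0, 7, 27, 23 and 5. With no filter on low values the 1.5-fold counts were 1 at 1 nM, 6 at 10 nM, 4 at 100 nM and 1 for 3 against 0.3 nM, and with no fold minimum 1 at 1 nM, 21 at 3 nM, 41 at 100 nM and 22 for 3 against 0.3 nM. At 1 nM the likelihood ratio test and a filter of 20 mean counts gave 1. At 3 nM the likelihood ratio test gave 1 past 1.5-fold. With no normalization factors the counts with no fold minimum were 2, 14, 14 and 0 at 3, 10 and 100 nM and for 3 against 0.3 nM, and 1 gene passed 1.5-fold at 10 and at 100 nM. At 100 nM DESeq2's Wald test, upper quartile factors and library sizes without the abundant RNAs left 1 past 1.5-fold. For 3 against 0.3 nM the likelihood ratio and Wald tests gave 2 and pairwise fits 3. TMM factors from all genes, chosen after seeing the data, gave 1 and 7 past 1.5-fold at 3 and 10 nM and 16 and 8 with no fold minimum at 3 nM and for 3 against 0.3 nM, and moved the median of all genes at 100 nM to -0.08.

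Leaving out 1 library gave, past 1.5-fold, 0 to 1 at 1 nM, 0 to 1 at 3 nM, 0 to 10 at 10 nM, 2 to 3 at 100 nM and 0 to 1 for 3 against 0.3 nM. With no fold minimum it gave 0 to 1, 4 to 15, 12 to 28, 13 to 28 and 0 to 8, and 0 to 1 higher at 100 nM.

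Log2 ratios of sums moved by over 1 SD as follows, for all members, for classes at 100 nM and where the sign changed. Class sums at other doses that moved without a change of sign are not listed, such as H2B at 3 and 10 nM. The mean of the members' log2 ratios gave -0.18 for H1 and -0.35 for H2B at 100 nM, where the sums gave -0.32 and -0.30, and it turned H2B at 0.3 nM to 0.034. No normalization factors gave -0.25 for H2B, and TMM factors from all genes gave -0.37 for all members, -0.40 for H1, -0.36 for H2A and -0.38 for H2B. Without 1 library the ratio for all members was -0.27 to -0.15 at 3 nM and -0.38 to -0.27 at 10 nM, and that for H3 was -0.44 to -0.16 at 100 nM, -0.12 to 0.16 at 0.3 nM and -0.26 to 0.024 at 1 nM. Hist1h2an at 100 nM was -0.22 to 0.87 and -0.08 without 100 nM replicate 2, and Hist1h2bp was -0.17 to 0.54. Other doses of named genes that did not pass were not recomputed.

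Replicate numbers 1 and 2 recur in every group. The deviations of same-numbered libraries correlated between -0.176 and 0.156 over 15 pairs of groups, 2 of them over 0.1, so the numbers were not taken as pairs. With the replicate block 7, 24, 23 and 4 members were lower at 3, 10 and 100 nM and for 3 against 0.3 nM with no fold minimum, and 3 and 2 past 1.5-fold at 10 and 100 nM.

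Members of low level had few counts, 2 to 22 per library in Hist3h2bb-ps and 24 to 73 in Hist1h1t.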
